A study of Mus musculus with 22 samples.

Results

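The 6 arrays described here profiled RNA taken straight from the aortic intima of C57BL/6 wild-type mice at 4 weeks of age, and were chosen by their sample titles out of 22 arrays in all. The mice were kept on chow in a barrier facility, received no treatment, and served as the normal-lipidemic group of a study of aortic endothelial cells. The intima was released with collagenase and scraped from the opened vessel after a hematoxylin stain, and the extracted RNA, kept only where its integrity number reached 7.0, was amplified for Affymetrix arrays. The other 16 arrays, used here only for 1 comparison, held 4 of fresh intima from 4-week ApoE -/- mice and 12 of opened aortas kept for 4 hours in medium with 1% serum, with 3 arrays each of medium alone, 4 ng/mL LPS, 50 µg/mL oxLDL or 50 µg/mL oxPAPC. The labels number the wild-type arrays 7, 8, 12, 13, 14 and 15 and do not say how many animals each holds, so every p-value measures only the spread between these samples. They call the material aortic endothelial cells, a name checked against marker genes below.

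The intima is the innermost layer of the artery, a single sheet of endothelial cells on a basement membrane. In the mouse aorta it lies directly on the media, where smooth muscle cells alternate with elastic lamellae. Arterial endothelium presents anticoagulant and vasodilator proteins to the blood and carries its own set of junction and Notch pathway genes, while blood cells can stay on the vessel wall after dissection and bring in globin and platelet transcripts.

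Each array gave a log2 signal for 22626 probe sets, of which 18003 named 1 gene, and the brightest probe set stood for each of 11807 genes. A gene was taken as above the floor where its signal exceeded the 40th percentile of the array in at least 3 of 6 arrays, which lay between 4.64 and 4.69. By this measure 7181 genes passed, 6516 of them in all 6 arrays, and 4066 genes passed in no array. Array medians ran from 5.35 to 5.37 and correlations between pairs of arrays, over genes, from 0.979 to 0.991, and no pair held identical values. Replicate 15 and replicate 12 stood farthest apart on the first principal component, which held 32.6% of the variance. The precision is limited by the number of arrays.

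The 20 genes with the brightest signals included genes of elastic matrix, of the cytoskeleton, of haemoglobin and of the translation machinery. Eln, which encodes the elastin of the lamellae, was the brightest gene at 12.35, 12.37, 12.30, 12.38, 12.11 and 12.10 in replicates 7, 8, 12, 13, 14 and 15. Sparc, a collagen-binding matrix protein, followed at 12.08 ± 0.05 (SD, n = 6), and Bgn, the proteoglycan biglycan, was at 11.76 ± 0.03 (SD, n = 6). Brightness depends on the probes as well as on the transcript, so the order of genes by signal is not an order of transcript numbers.

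Among the 20 brightest genes were the myosin light chain Myl6, the tropomyosin Tpm1, the intermediate filament gene Vim and the actin Actb. Hbb-b2, a beta globin of red cells, lay between 11.64 in replicate 15 and 12.21 in replicate 13. The translation factor Eef1a1, the ribosomal protein gene Rps6, the iron store gene Fth1, and Ramp2, which pairs with the adrenomedullin receptor of endothelium, were also in this group. Fstl1, Ahnak, Hnrnpab, Ctnnb1, Marveld1, Hmgn1 and Tuba1a completed it together with Sfrp2, a secreted Wnt pathway inhibitor. Sfrp2 had the widest spread of the 20, with 12.04, 11.91, 11.96 and 11.94 in replicates 7, 8, 12 and 13 against 11.30 in both replicate 14 and replicate 15. Taking the mean of all of a gene's probe sets in place of the brightest kept 10 of these 20 genes among the brightest 20, namely Eln, Sparc, Bgn, Sfrp2, Eef1a1, Fth1, Ramp2, Vim, Actb and Tuba1a. Hbb-b2, Myl6, Tpm1 and Rps6 were not among them.

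Endothelial markers were bright in every array. Pecam1, the adhesion protein of endothelial junctions, read 11.60, 11.55, 11.47, 11.64, 11.86 and 11.83 in replicates 7, 8, 12, 13, 14 and 15, on average brighter than 99.8% of probe sets. Vwf, the carrier of clotting factor VIII made by endothelium, was at 10.86, 10.87, 10.52, 10.76, 10.56 and 10.70. Both genes were lowest in replicate 12.

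Cdh5, the cadherin of endothelial junctions, measured 9.42, 9.46, 8.67, 9.41, 9.60 and 9.61 in the same order. Replicate 12 stood below the other 5 arrays, and it was also the lowest on the second Cdh5 probe set, at 7.85 against 8.04 to 8.29 elsewhere. Of 16 endothelial list genes on the array, 15 passed, led by Pecam1, by the angiopoietin receptor Tek at 11.22 ± 0.11 (SD, n = 6), by Vwf and by the sialomucin Emcn at 9.95 ± 0.33 (SD, n = 6). Robo4 was the exception, below the 40th percentile on all 6 arrays.

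Most arterial genes gave bright signals. Of 12 arterial genes on the array 11 passed, all 11 of them in every array. Efnb2, the ephrin ligand that marks arteries, was at 11.01 ± 0.09 (SD, n = 6), the guidance receptor Nrp1 at 10.84 ± 0.27, the Notch target Hey2 at 10.26 ± 0.19 and the tyrosine kinase Bmx at 9.81 ± 0.18. The connexin Gja5 gave 9.15, 9.05, 8.16, 9.11, 9.47 and 9.20, and replicate 12 was again below the rest. Dll4, a Notch ligand of arteries, was below the 40th percentile on all 6 arrays.

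Smooth muscle markers were bright in every array as well. Acta2, the smooth muscle actin, read 11.19, 11.43, 11.61, 11.14, 11.49 and 11.18, and Myh11, the smooth muscle myosin heavy chain, 11.23, 11.41, 11.63, 11.17, 11.53 and 11.50. Both markers were highest in replicate 12 and lowest in replicate 13. All 15 smooth muscle genes on the array passed, 14 of them in every array, among them the integrin Itga8 at 11.42 ± 0.29 (SD, n = 6) and the light chain Myl9 at 10.97 ± 0.32 (SD, n = 6). The labelled endothelial material thus also held smooth muscle transcripts in all 6 arrays, and is called intima here.

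Probe sets of 1 gene did not always give the same spread. The second Acta2 probe set, dimmer than the first, ran from 7.93 in replicate 7 to 9.71 in replicate 12, a wider spread than the brighter set showed. The second Myh11 probe set lay between 6.00 in replicate 8 and 7.37 in replicate 12. Replicate 12 was the highest array on all 4 probe sets.

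**Figure D1:**
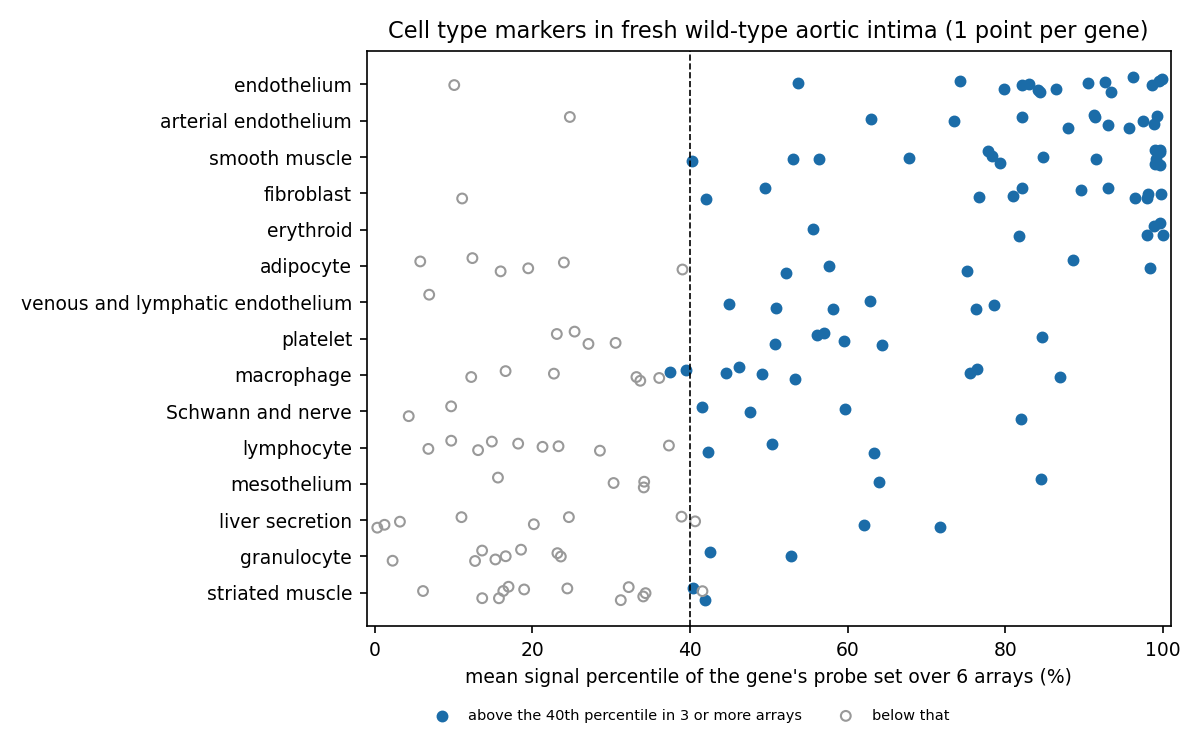
Each point is 1 marker gene, placed by the mean percentile of its signal among all probe sets over the 6 arrays (horizontal axis, percent) and by its cell type list (vertical axis). Filled points passed the floor in at least 3 arrays and open points did not. The endothelial, arterial, smooth muscle and erythroid lists lie mostly to the right, with 15 of 16, 11 of 12, 15 of 15 and 6 of 6 genes passing, and the granulocyte and striated muscle lists mostly to the left.

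Fibroblast genes were also well represented, with 11 of 12 passing. Col3a1 and Col1a1, fibrillar collagens made by fibroblasts and by smooth muscle, were at 11.55 ± 0.12 and 10.52 ± 0.22 (SD, n = 6), and the microfibril protein gene Mfap5 at 10.46 ± 0.18. Of 7 venous and lymphatic genes 6 passed, with the hyaluronan receptor Lyve1 between 6.81 and 8.15 and the lymphatic receptor Flt4 between 7.04 and 7.65. Prox1, the master regulator of lymphatic endothelium, was below the 40th percentile on all 6 arrays.

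Blood was present as red cell and platelet transcripts. All 6 erythroid genes on the array passed. Hba-a1, an alpha globin, read 11.86, 11.53, 11.31, 11.97, 11.61 and 10.86, and its 3 probe sets were each highest in replicate 13 and lowest in replicate 15. The alpha and beta globin genes have near-identical copies whose signal these probe sets can share. Alas2, the first enzyme of haem synthesis in red cell precursors, gave 8.67, 7.72, 7.43, 8.71, 8.19 and 6.85. Replicates 7 and 13 were thus the highest arrays for both genes and replicate 15 the lowest. Over the list, replicate 13 was the highest array for 5 of 6 genes and replicate 15 the lowest for 4. Slc4a1 differed in that array, with its highest signal in replicate 15.

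Of 10 platelet genes on the array 6 passed. The chemokine Ppbp stored in platelet granules read 6.76, 7.30, 4.08, 7.26, 7.10 and 6.40, and Pf4, another platelet chemokine, 6.32, 6.98, 4.68, 6.50, 6.50 and 5.49. Replicate 12 was the lowest array for both, and replicate 15 the next. Gp1bb, a receptor subunit for von Willebrand factor on platelets, was below the 40th percentile on all 6 arrays. So were Gp9, Gp5 and Treml1, named to complete the list. The other genes that passed were Itga2b, Clec1b, Itgb3 and Gng11.

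Lists of other white cells passed in part. Of 15 macrophage genes 9 passed, with the lysosomal protease Ctss between 7.71 and 9.06 and lysozyme Lyz2 between 6.93 and 7.86, while the integrin Itgam was below the 40th percentile on all 6 arrays. Lymphocytes were represented by 3 of 12 genes, the brightest of them Ptprc, the CD45 antigen of all white cells, at 6.36 ± 0.29 (SD, n = 6). Granulocytes were represented by 2 of 10, S100a9 and Ltf, with Mpo, Csf3r and Cxcr2 below the 40th percentile on every array.

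Tissues around the aorta gave partial lists. Of 11 adipocyte genes 5 passed, led by the fatty acid carrier Fabp4 at 10.58 ± 0.14 (SD, n = 6), which capillary endothelium also makes. Pck1, Adipoq, Cidea, Lep and Retn were below the 40th percentile on all 6 arrays, and Ucp1 was above it in 2. These were named to complete the list. Schwann cell and nerve genes passed in 4 of 6 cases, but myelin Mbp stayed at 2.89 ± 0.08. Striated muscle passed in 2 of 14 cases and liver secretion in 2 of 10. Alb, the serum albumin gene, stood between 4.47 and 4.68, at the floor.

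Between the 6 arrays most genes varied little. Over the 7181 passing genes the SD had a median of 0.221 and quartiles of 0.155 and 0.315, and 459 genes (6.39%) had an SD above 0.5. Only 20 genes had an SD above 1, from Upk3b at 2.21 to Gpm6a at 1.02, the next gene being at 0.997. The SD is a description of these arrays, and no test was made on it.

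**Figure D2:**
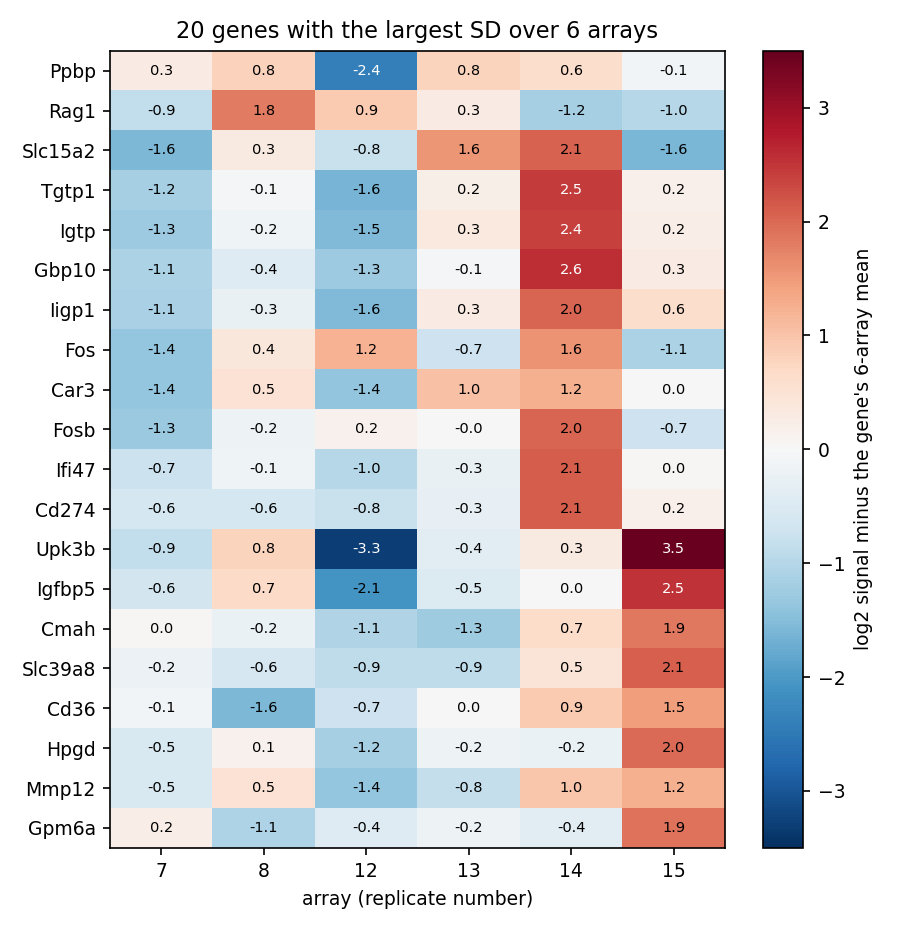
Rows are the 20 passing genes with the largest SD, columns the 6 arrays by replicate number, and each cell gives the log2 signal minus that gene's mean over the 6 arrays. Upk3b and Igfbp5 are highest in replicate 15 and lowest in replicate 12, and Tgtp1, Igtp, Gbp10, Iigp1, Ifi47 and Cd274 are highest in replicate 14.

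These extremes were not spread evenly over the arrays. Among the 100 genes with the largest SD, 31 were highest in replicate 12, 25 in replicate 14 and 29 in replicate 15, against 3, 6 and 6 in replicates 7, 8 and 13. Over all passing genes each array held between 14.5% and 18.7% of the highest values. Among the same 100 genes, 32 were lowest in replicate 12, where 18.5% of all passing genes were lowest.

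Replicate 15 was the highest array for several of the most variable genes. Upk3b, a uroplakin that marks mesothelium, read 5.86, 7.49, 3.43, 6.34, 7.03 and 10.18 in replicates 7, 8, 12, 13, 14 and 15. Its second probe set went from 4.07 in replicate 12 to 9.06 in replicate 15. Igfbp5, a secreted carrier of insulin-like growth factors, gave 8.42, 9.74, 6.99, 8.59, 9.08 and 11.58, so that both genes were lowest in replicate 12 and highest in replicate 15.

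Gpm6a, a membrane glycoprotein, read 7.27, 5.96, 6.60, 6.86, 6.65 and 8.94, and the sialoglycoprotein gene Pdpn 4.52, 5.55, 4.77, 5.39, 5.19 and 7.26. For both genes replicate 15 lay above the other 5 arrays. Of 6 mesothelial genes on the array, Upk3b and the keratin Krt18 passed, Krt18 being highest in replicate 14 at 8.66, and the mean of those 2 ran from 5.77 in replicate 12 to 9.22 in replicate 15. Msln, Krt19 and Wt1 were each above the 40th percentile in 1 array, reaching 4.78, 5.20 and 5.01 in replicate 15, and Krt8 was below it on all 6 arrays.

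Further genes with the highest signal in replicate 15 were the fatty acid transporter Cd36, which went from 3.96 in replicate 8 to 7.00, the zinc importer Slc39a8 from 5.42 to 8.40, the sialic acid hydroxylase Cmah from 4.66 to 7.77, the prostaglandin-degrading Hpgd from 4.32 to 7.47 and the macrophage elastase Mmp12 from 3.66 to 6.27. Kdr, the main VEGF receptor of endothelium, read 5.39, 5.27, 4.87, 5.73, 5.71 and 6.83. It too was highest in replicate 15. Both other Cd36 probe sets were below the 40th percentile on all 6 arrays, with SDs of 0.29 and 0.16, and 1 of them was highest in replicate 13. The second probe sets of Cmah, Slc39a8 and Hpgd were also highest in replicate 15, those of Slc39a8 and Hpgd being above the 40th percentile in 1 and 2 arrays. What part mesothelial transcripts have in these values was not tested.

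Replicate 14 stood out by interferon-inducible genes. Interferons bind receptors that act through STAT proteins and switch on guanylate-binding and immunity-related GTPases, which attack vacuoles of intracellular microbes, together with the genes of antigen processing. Tgtp1, an immunity-related GTPase with a near-identical neighbour copy, read 6.62, 7.73, 6.16, 7.98, 10.24 and 7.97. Igtp, of the same family, gave 6.99, 8.10, 6.72, 8.59, 10.65 and 8.49, and Iigp1 7.92, 8.81, 7.51, 9.35, 11.10 and 9.68.

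The guanylate-binding Gbp10 was at 6.60, 7.25, 6.43, 7.65, 10.28 and 7.99, and Ifi47 at 6.88, 7.49, 6.63, 7.37, 9.74 and 7.67. All 5 of these GTPases were highest in replicate 14 and lowest in replicate 12. Cd274, the checkpoint ligand PD-L1, read 5.17, 5.18, 5.01, 5.50, 7.91 and 5.96 and kept the same extremes.

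The wider lists had the same extremes. Of 14 interferon response genes on the array 8 passed. In that list 7 of 8 passing genes were highest in replicate 14, and the mean of the 8 was 8.22 there against 6.81 to 7.43 elsewhere. Mx1, Mx2 and Oas2 were below the 40th percentile on all 6 arrays, and Irf7, Usp18 and Cxcl10 were each above it in 2. These were named to complete the list. Of 12 antigen presentation genes on the array 10 passed. All 10 were highest in replicate 14 and 9 of 10 lowest in replicate 12. H2-Ab1, a class II chain, read 6.40, 6.61, 5.66, 7.27, 8.31 and 7.47, and the immunoproteasome subunit Psmb9 7.19, 7.70, 6.56, 7.42, 8.59 and 7.66. The mean of the 9 macrophage genes was also highest in replicate 14, at 6.26, and lowest in replicate 12, at 5.33, and its part in these values was not tested.

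Promoter windows of Tgtp1, Igtp and Gbp2 are printed because they hold letters that interferon-activated factors are known to bind, in Tgtp1 and Igtp in the same arrangement. The sequences are the 250 bases before the gene's start in RefSeq (GRCm38.p6), 5′ to 3′ on the gene's strand. Capitals mark the interferon-stimulated response element, read as GAAA, 2 bases of any kind and GAAA again, and the gamma-activated site TTCNNNGAA, both searched on both strands.
Tgtp1, chr11:48992247-48992496, minus strand: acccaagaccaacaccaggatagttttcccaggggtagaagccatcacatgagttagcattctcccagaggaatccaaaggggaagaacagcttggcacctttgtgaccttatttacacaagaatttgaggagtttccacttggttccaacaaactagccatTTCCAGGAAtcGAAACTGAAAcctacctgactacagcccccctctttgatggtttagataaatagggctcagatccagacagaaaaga
Igtp, chr11:58199306-58199555, plus strand: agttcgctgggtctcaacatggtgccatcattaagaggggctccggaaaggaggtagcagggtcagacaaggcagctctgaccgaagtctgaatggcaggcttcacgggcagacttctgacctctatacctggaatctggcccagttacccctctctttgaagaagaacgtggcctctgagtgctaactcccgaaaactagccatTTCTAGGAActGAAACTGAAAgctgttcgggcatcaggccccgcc
Gbp2, chr3:142620413-142620662, plus strand: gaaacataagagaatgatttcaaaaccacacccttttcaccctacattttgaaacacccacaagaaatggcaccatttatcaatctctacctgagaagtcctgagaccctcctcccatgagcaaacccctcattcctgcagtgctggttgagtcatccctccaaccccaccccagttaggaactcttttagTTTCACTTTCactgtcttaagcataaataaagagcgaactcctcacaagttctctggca

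In Tgtp1 and Igtp the gamma-activated site comes just before the response element, with 2 bases between them, and the Gbp2 window holds the element alone, on the opposite strand. The response element letters occur in 2.98% of all 32851 promoter windows of this length and the gamma-activated site letters in 7.02%. In the interferon response list 5 of 9 genes in the table held the response element letters, which were in 3.34% of the 9430 genes on the array that the table names. The gamma-activated site letters were in 1 of those 9 genes and in 7.42% of the 9430. In the antigen presentation list 0 of 9 genes held the response element letters and 2 of 9 the gamma-activated site letters. Both sets of letters were also in Gpm6a, which was highest in replicate 15. A match is a description of letters and shows no binding.

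The circadian list set replicates 14 and 15 apart from the other 4. The clock runs on the activators Clock, Arntl and Npas2, which bind E-boxes and drive Per, Cry and Rev-erb genes and output factors such as Dbp and Tef, and the vessel wall is known to have such a clock. Dbp read 7.58, 7.85, 7.62, 8.66, 5.98 and 6.94, and Per2 5.85, 5.58, 6.79, 6.19, 4.87 and 4.06. Npas2 ran the opposite way, with 5.42, 5.58, 5.62, 5.11, 6.94 and 7.12. For each of the 3 genes replicates 14 and 15 lay on 1 side of all other arrays.

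Of 15 clock genes on the array 13 passed, and the activator Arntl and Bhlhe41 were below the 40th percentile on all 6 arrays. Over the 13 passing clock genes the mean was 6.61 in replicate 14 and 6.62 in replicate 15 against 7.04 to 7.38 in the others. In 8 of the 13 (61.5%) replicates 14 and 15 were the 2 lowest arrays, as they were for 13.97% of all passing genes, and this pair was chosen after its values were seen. The 8 were Bhlhe40, Cry2, Dbp, Per1, Per2, Per3, Tef and Wee1, named for that count. Tef gave 9.19, 8.62, 8.66, 9.32, 8.09 and 8.52, and the repressor Nr1d2 9.62, 9.46, 9.34, 9.52, 8.66 and 9.43. The time of day of dissection is not given in the labels.

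The Tef window is printed because it holds the E-box CACGTG in capitals. Tef has 2 starts, and the start shown was chosen for holding these letters. At any start of a gene they were found in 4 of 12 clock genes in the table and in 9.24% of the 9430 genes on the array that it names.
Tef, chr15:81802423-81802672, plus strand: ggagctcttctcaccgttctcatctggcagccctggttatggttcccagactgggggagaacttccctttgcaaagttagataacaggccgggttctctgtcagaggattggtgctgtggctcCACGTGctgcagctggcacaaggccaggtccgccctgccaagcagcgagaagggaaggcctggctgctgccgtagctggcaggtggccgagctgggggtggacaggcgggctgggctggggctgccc

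**Figure D3:**
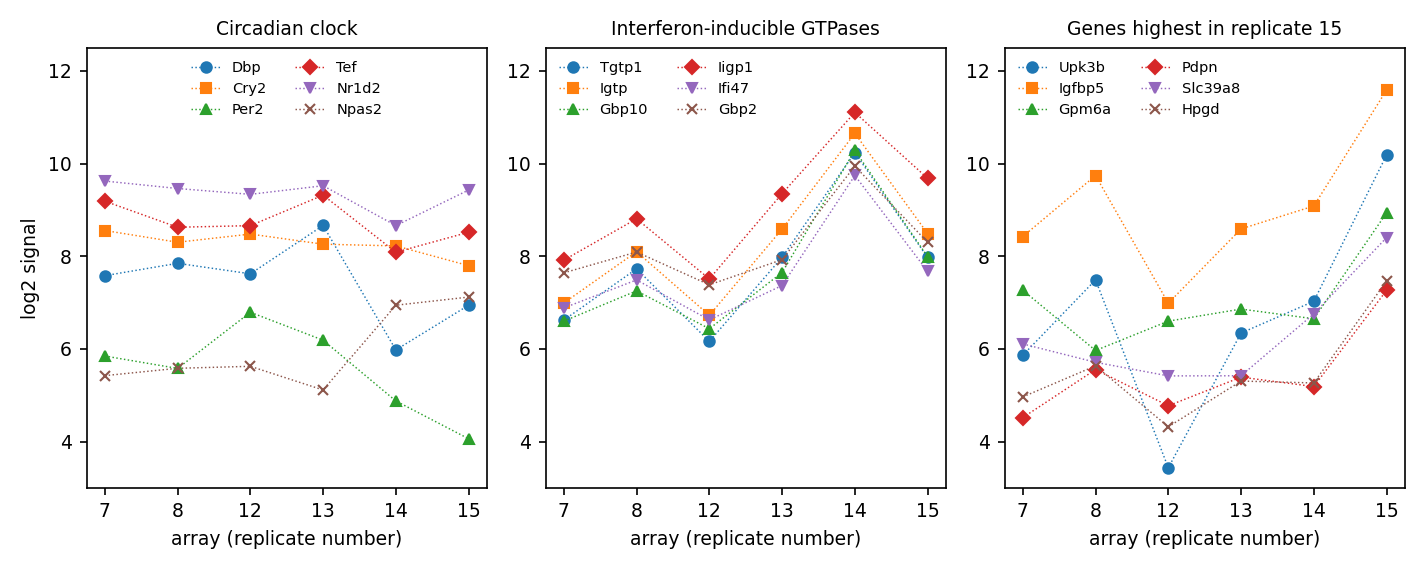
Log2 signal (vertical axes) of named genes in the 6 arrays by replicate number (horizontal axes), for the circadian clock, for interferon-inducible GTPases and for genes highest in replicate 15. Dbp, Per2 and Tef are lowest and Npas2 highest in replicates 14 and 15, the 6 GTPases peak in replicate 14, and Upk3b stands at 10.18 in replicate 15. Dotted lines only join values of 1 gene.

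Immediate early genes, which answer to stress and handling within minutes, differed between arrays as well. Fos read 4.88, 6.64, 7.45, 5.51, 7.80 and 5.12 and Fosb 4.07, 5.17, 5.51, 5.35, 7.39 and 4.64, both highest in replicate 14 and lowest in replicate 7. Atf3, a stress-induced repressor, gave 5.35, 5.82, 7.33, 5.05, 5.97 and 5.02 and was highest in replicate 12. The mean of the 18 passing immediate early genes ran from 6.87 in replicate 7 to 7.55 in replicate 12, and 9 of the 18 were highest in replicate 12. Junb was below the 40th percentile on all 6 arrays.

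Among heat shock genes the inducible Hspa1b went from 7.71 in replicate 14 to 9.82 in replicate 8, and 5 of 8 were highest in replicate 12. Cell cycle genes were highest in replicate 13 in 6 of 8 cases. Mki67, a marker of dividing cells, gave 8.64, 8.53, 8.25, 9.11, 8.41 and 7.47. Tyms, the thymidylate synthase, was at 7.65 in replicate 13 and between 6.68 and 6.86 in the others.

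The smooth muscle signal was then set against the other cell types. The smooth muscle level of an array is the mean over the 15 smooth muscle genes of the log2 signal minus each gene's 6-array mean. It was −0.30, 0.02, 0.47, −0.32, 0.21 and −0.09 in replicates 7, 8, 12, 13, 14 and 15, so that replicate 12 was highest and replicates 7 and 13 lowest. In 13 of the 15 genes replicate 12 was the highest array, and in the other 2, Pln and Sncg, named for that count, it was the lowest. Calponin Cnn1 gave 7.95, 8.39, 9.20, 7.60, 8.21 and 7.97, and Actg2, an actin of visceral muscle, 7.19, 7.71, 8.78, 7.01, 7.83 and 7.10. In bulk RNA fewer cells of a type and less RNA per cell cannot be told apart.

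Myl9 followed the same order at its top, with 10.67, 10.92, 11.38, 10.56, 11.20 and 11.10. Its promoter window is shown because it was the 1 of 12 smooth muscle genes in the table with a CArG box, the site of serum response factor, in capitals, a motif, searched on both strands, in 1.68% of the 9430 genes on the array that the table names.
Myl9, chr2:156775214-156775463, plus strand: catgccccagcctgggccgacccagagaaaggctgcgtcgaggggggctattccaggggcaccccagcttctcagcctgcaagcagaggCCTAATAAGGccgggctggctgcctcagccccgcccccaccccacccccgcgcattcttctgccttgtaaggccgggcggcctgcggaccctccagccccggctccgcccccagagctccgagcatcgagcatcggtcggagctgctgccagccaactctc

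Endothelial signal went the other way. The mean of the 15 endothelial genes was 8.88, 8.80, 8.37, 8.88, 8.87 and 9.04 in replicates 7, 8, 12, 13, 14 and 15, and that of the 11 arterial genes 9.07, 9.02, 8.83, 9.20, 8.90 and 9.06. Replicate 12, with the highest smooth muscle level, was the lowest array for both, and 13 of the 15 endothelial genes were lowest there. Of the 11 arterial genes 4 were lowest in replicate 12 and 4 in replicate 14. The arterial means followed the smooth muscle level in exactly reversed order, with Pearson's r = −0.947 (exact permutation p = 0.00556) and Spearman's rho = −1 (exact permutation p = 0.00278) over the 6 arrays.

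That was 1 of 19 pairs of lists compared, and after Benjamini-Hochberg adjustment over the 19 the exact permutation p-values were 0.106 for r and 0.0528 for rho. Without replicates 12 and 13, the arrays farthest from the median smooth muscle level, r was −0.888. For the endothelial list r was −0.748 (exact permutation p = 0.0819) and rho −0.771 (exact permutation p = 0.103), and without replicates 12 and 13 r was −0.247, so the size of that relation rests on those arrays. None of the 19 pairs passed an adjusted p of 0.05 with either measure. For rho, an exactly reversed order already gives the smallest p-value that 6 arrays allow. The adjusted 0.0528 was thus the lowest that 1 pair alone could reach, so for a single pair the adjusted rho test could not decide.

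**Figure D4:**
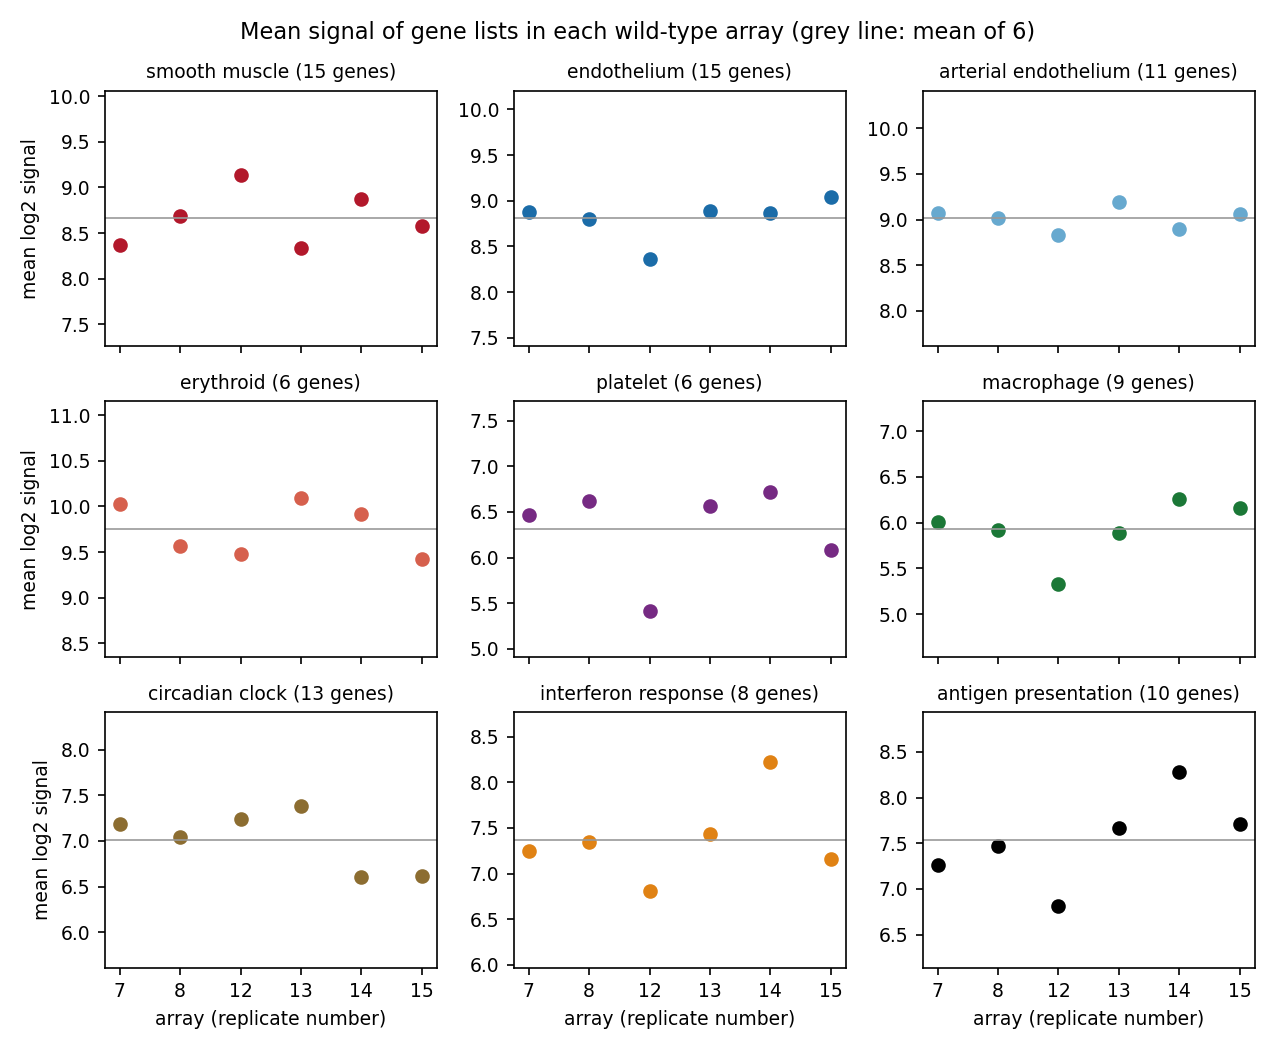
Mean log2 signal (vertical axes, all spanning the same range of log2 units) of the passing genes of 9 lists in each array by replicate number (horizontal axes), with the grey line at the mean of the 6. Replicate 12 is the highest array for smooth muscle and the lowest for endothelium, platelet and macrophage, replicate 14 is the highest for interferon response and antigen presentation, and replicates 14 and 15 are the lowest for the circadian clock.

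Gene by gene, a limma regression on the smooth muscle level, with the 15 list genes left out, called 0 of 7166 genes (0%) at an adjusted p under 0.05. At an unadjusted p under 0.05 there were 429 genes, 278 with a positive and 151 with a negative slope. The smallest p belonged to Vmp1, an autophagy membrane protein, with 7.97, 8.81, 10.01, 8.20, 9.27 and 8.56 in the 6 arrays and a slope of 2.43 ± 0.25 log2 units per unit of the level (SE, limma adjusted p = 0.0856). Rcan2, an inhibitor of calcineurin, gave 8.30, 8.88, 9.87, 8.27, 9.25 and 8.55, with a slope of 2.03 ± 0.23 (SE, limma adjusted p = 0.10).

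Eppk1, Rrad and the matricellular Ccn1 came next, with slopes of 2.82 ± 0.36, 2.21 ± 0.29 and 2.60 ± 0.36 (SE). Ccn1 read 9.54, 10.46, 11.42, 9.30, 10.57 and 9.48, highest in replicate 12 and lowest in replicate 13. With other settings limma called 1 gene when the level came from Acta2 and Myh11 alone, 2 with the mean of all probe sets and 5 with an intensity trend and robust estimation, and 0 when any 1 array was left out.

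Lists differed in the sign of their slopes on the smooth muscle level, given here as a description. Slopes were above 0 for 44.3% of all tested genes, with a median of −0.04. They were below 0 for 15 of 15 endothelial genes (median −0.65), 10 of 11 arterial genes, 6 of 6 erythroid genes and 9 of 9 macrophage genes. They were above 0 for 16 of 18 immediate early genes (median 0.87), 7 of 8 heat shock genes and 13 of 19 matrix genes (median 0.36). In the other 16 arrays, fitted below, several of these medians lay nearer to 0. Slopes there were below 0 for 12 of 15 endothelial genes (median −0.25) and 7 of 11 arterial genes (median −0.05). They were above 0 for 13 of 18 immediate early genes (median 0.12) and 4 of 8 heat shock genes.

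The red cell level, built the same way from 6 erythroid genes, was 0.28, −0.18, −0.27, 0.34, 0.16 and −0.33, and the platelet level, from 6 genes, 0.15, 0.31, −0.90, 0.25, 0.41 and −0.23. Their limma fits called 0 of 7175 genes (0%) each, with 228 and 290 genes at an unadjusted p under 0.05, and 0 under each alternative tried. On the red cell level the smallest p-values were those of the kinesin Cenpe and of the interferon-induced Isg20 and Rsad2, with slopes of 2.85 ± 0.40, 2.09 ± 0.34 and 2.29 ± 0.40 (SE), followed by Pdgfc at −1.44 ± 0.26 and Kcne3 at 1.52 ± 0.29. Rsad2, an antiviral enzyme, gave 8.15, 7.40, 7.13, 8.34, 8.61 and 6.79.

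On the red cell level slopes were above 0 for 6 of 6 platelet genes, 8 of 8 interferon response genes, 10 of 10 antigen presentation genes and 52 of 58 ribosomal protein genes, where 53.9% of all tested genes were. On the platelet level they were above 0 for 15 of 15 endothelial, 9 of 9 macrophage and 10 of 10 antigen presentation genes, where 51.5% of all tested genes were. The smallest p-values there were those of Fam81a, Cd68, Pla2g4a, Prss23 and Fbxo33. Cd68, a lysosomal protein of macrophages, gave 4.70, 4.83, 3.74, 4.79, 5.00 and 4.17 and a slope of 0.97 ± 0.14 (SE), and replicate 12 was its lowest array. Platelet, macrophage, interferon response and antigen presentation means were all lowest in replicate 12 and highest in replicate 14. Replicate 15 was the second lowest array for platelet genes, at 6.08, and the second highest for macrophage genes, at 6.16.

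The other 16 arrays gave a second measure of which genes go with smooth muscle. They share no array with the wild-type group, but it is not known if both went through RMA at once, and some of their replicate numbers also occur in that group. There the smooth muscle level was formed from the same 15 genes and fitted beside the group, so that slopes come from differences within groups. Limma called 63 of 7166 genes (0.879%) at an adjusted p under 0.05, 62 of them (0.865%) with a positive slope. With the largest slopes were Rgs5, a G protein regulator of mural cells, at 2.52 ± 0.53 (SE, limma adjusted p = 0.0377), the leucine-rich Islr at 2.47 ± 0.54, the microfibril glycoprotein Mfap4 at 2.15 ± 0.38 and the sodium-calcium exchanger Slc24a3 at 2.04 ± 0.40. They were followed by Rcan2, the muscle ubiquitin ligase gene Fbxo32, the sodium pump regulator Fxyd1, the collagen Col6a2, the growth factor receptor Fgfr2 and the calcium channel subunit Cacna2d1.

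Those calls rest on single arrays in part. With 1 of the 16 arrays left out, an alternative added after seeing the data, limma called between 21 and 63 genes. The count moved by over 1.5 times without oxLDL replicate 16 (21 genes), oxPAPC replicate 11 (34), oxLDL replicate 14 (38), medium replicate 11 (39), oxPAPC replicate 13 (39) or LPS replicate 10 (40). The genes called also changed, since of the 62 called higher with all arrays 28 were among the 48 called higher without medium replicate 9 and 23 among the 38 without medium replicate 11. In all 16 of these fits 9 genes were called higher, named for that count, the matrix genes Aspn, Col6a2 and Postn, the receptor gene Fgfr2, Fxyd1, the desmosomal Dsp, the dystrobrevin Dtna, Mrvi1 and the sarcomeric Myom1. Rgs5 lost its call in 12 and Islr in 12 of the 16 fits, with adjusted p-values up to 0.162 and 0.161 in limma, and their slopes stayed above 0.

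In the wild-type arrays the slopes of all 62 genes on the smooth muscle level were above 0, from 0.16 to 2.52 with a median of 1.33, although none was called there. Slopes above 1 were found in 47 of the 62 (75.8%) and in 224 (3.13%) of all tested genes. Rgs5 read 8.76, 8.65, 9.74, 8.25, 8.79 and 8.01, Fxyd1 7.18, 7.28, 8.39, 6.84, 7.52 and 7.37, and Cacna2d1 6.81, 6.83, 8.52, 6.78, 7.87 and 7.09. Each was highest in replicate 12, the array with the highest smooth muscle level. Without replicate 12 slopes were above 0 for 57 of the 62, with a median of 0.89, and without replicate 7 for 60. Genes that led in wild type recurred less in the other 16 arrays. Of the 5 with the smallest p in wild type only Rcan2 was called there. Eppk1 and Ccn1 had slopes of 0.24 ± 0.33 and 0.16 ± 0.85 (SE) in those arrays. Over all 7166 tested genes, 4038 slopes had the same sign in both sets of arrays.

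**Figure D5:**
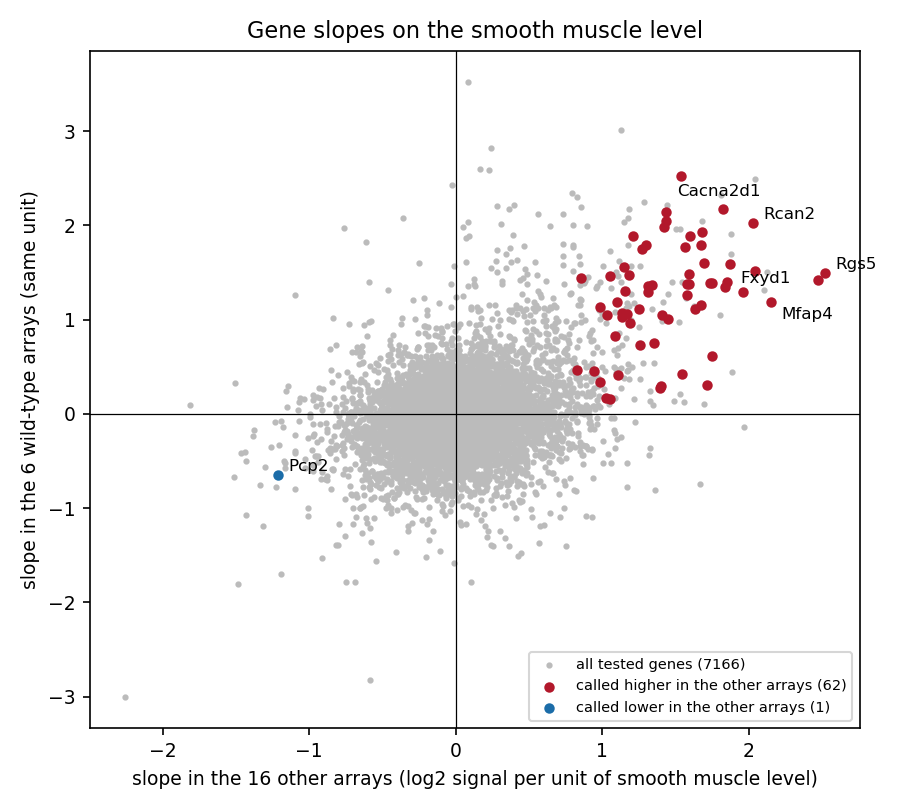
Each point is a gene, with its slope on the smooth muscle level in the 16 other arrays (horizontal axis) and in the 6 wild-type arrays (vertical axis), both in log2 signal per unit of level. The 62 genes called higher in the other arrays, in red, all lie above 0 on the vertical axis, between 0.16 and 2.52, and the 1 gene called lower, Pcp2, lies below 0.

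Matrix genes were part of that group. Of 19 elastic and collagen matrix genes 6 were called higher in the other arrays, where 0.865% of all tested genes were, named for that count as Mfap4, Col6a2, Col15a1, Postn, Loxl1 and Col18a1, and 19 of 19 slopes there were above 0, as were 49.5% of those of all tested genes. In wild type Col6a2 read 8.33, 9.02, 9.31, 8.02, 8.42 and 7.70 and the matricellular Postn 9.0, 9.32, 10.47, 9.18, 10.12 and 9.58. Both were highest in replicate 12. Col1a1 and Col3a1, listed as fibroblast markers, were also called higher in the other arrays, as 2 of 11 fibroblast genes. Of these 11 genes 7 had slopes below 0 in wild type and 5 in the other arrays. The 1 gene called lower (0.014%) was the Purkinje cell protein gene Pcp2, at −1.21 ± 0.27 (SE, limma adjusted p = 0.0492), which stood between 4.25 and 5.32 in wild type, near the floor. Its call was lost after cyclic loess (limma adjusted p = 0.0578) and in 13 of the 16 fits without 1 array.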

How the data were processed

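Per the submitters' processing notes the deposited values were made with RMA and affy, whose versions are not given in the sources used here, and the authors' deposited unit is log2 signal. The sources used here do not say if RMA took in all 22 arrays at once. Probe sets were named from the platform annotation, updated by Entrez ID through RefSeq (17977 of 18003 matched). No gene was named from the 287 probe sets that match several genes or the 4336 that match none. The 6 arrays were grouped by title. Slopes were fitted with limma 3.58.1 in R 4.3.3 (lmFit, eBayes, Benjamini-Hochberg at 0.05) on genes above the 40th percentile in at least 3 of 6 arrays, with list members left out, and the script was tested on simulated data. Correlations used all 720 orders of 6 arrays. Alternatives were other scalings, filters, marker choices and probe set means, and leaving out each array.

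The marker genes and 29 lists (498 entries, 422 on the array) were chosen with earlier results of these data known. Genes named are the 5 markers, the 20 brightest, up to 4 brightest, the dimmest and 3 most variable of a list, the 20 with the largest SD, and, per fit, the 10 largest slopes among called genes or the 5 smallest p-values. Labels give no scan date or batch for these arrays.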

Additional observations from a re-analysis of the deposited data

Results flagged for a closer look

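In 21 of 233 named genes and 25 list means, 1 array of the 6 stood apart by Dixon's criterion. It takes the gap to the next array over the whole range. Chance flags about 1 in 20 independent values, a rate that cannot be set against this count. Many of these genes were named for a large SD over the same arrays or a small p on their levels. Replicate 12 was the array in 9 cases. It was the lowest for Cdh5 (8.67), Gja5 (8.16), Ppbp (4.08), Fcer1g (5.06), Tyrobp (6.40) and the mean of the endothelial list (8.37), and the highest for Col3a1 (11.78), Fgfr2 (9.24) and Pla2g4a (7.65). Replicate 14 was the array in 7 cases. It was the highest for Cd274 (7.91), Gbp2 (9.94), Ifi47 (9.74), Psmb8 (8.63), Itgb3 (6.89) and Tnnc2 (5.39), and the lowest for Nr1d2 (8.66). Replicate 15 was the lowest for Eif3e (10.43) and Marveld1 (11.56) and the highest for Fbln1 (9.20). Replicate 13 was the highest for Tyms (7.65) and replicate 8 for Gp1bb (4.31), a gene below the floor.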

How the results depend on the processing

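No paired analysis was possible because no groups were compared. For the smooth muscle level limma called 0 genes, and 1 with the 2 brightest markers, 2 with the mean of all probe sets and 5 with an intensity trend and robust estimation; the other alternatives and all counts for the red cell and platelet levels were 0, as were those without 1 array. The other 16 arrays gave 63 calls, 63 after cyclic loess, 44 with the 12 incubated arrays only and 21 to 63 when 1 of the 16 was left out. Of the 62 genes called higher there, 57 to 62 had a wild-type slope above 0 when 1 array was left out, an alternative added after seeing the data. With the mean of all probe sets 10 of the 20 brightest genes were kept, and without 1 array 11 to 18 of the 20 genes with the largest SD, 11 of them without replicate 14.

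Several correlations changed sign, most of them without replicate 12, and the cause was not tested. Without the 2 arrays farthest from the median, the smooth muscle level had r = 0.406 with venous and lymphatic endothelium, 0.514 with platelet, 0.513 with macrophage, 0.434 with lymphocyte and 0.932 with adipocyte, and the erythroid level 0.108 with lymphocyte and 0.0014 with fibroblast. With all members on the array smooth muscle and lymphocyte gave 0.164, and after cyclic loess smooth muscle and adipocyte gave 0.0328. With 1 array left out, r for the smooth muscle level ran from −0.721 to 0.280 with venous and lymphatic endothelium, −0.839 to 0.320 with platelet, −0.810 to 0.668 with macrophage, −0.430 to 0.623 with lymphocyte and −0.492 to 0.578 with adipocyte. For the erythroid level it ran from −0.412 to 0.788 with endothelium, −0.240 to 0.646 with macrophage and −0.505 to 0.0629 with fibroblast. Smooth muscle against arterial endothelium kept its sign, from −0.988 to −0.902. The 6 arrays limit all of these values, and signals near the 40th percentile are hard to tell from background.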

Other observations

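Housekeeping lists were the steadiest in these arrays. The 58 ribosomal protein genes on the array all passed in every array, with a median SD of 0.0928, and their array means lay between 9.74 in replicate 15 and 9.87 in replicate 7. All 16 cytoskeleton genes passed, with a median SD of 0.0803. Of 35 genes of oxidative phosphorylation 34 passed, with a median SD of 0.126. Single genes departed from this, such as Rpl14, at 6.44, 5.72, 5.85, 4.78, 5.61 and 6.05 in replicates 7, 8, 12, 13, 14 and 15.

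Of 18 genes listed for flow response and anticoagulant function 17 passed, the brightest being Ramp2, Tm4sf1 at 11.54 ± 0.03 (SD, n = 6), the endothelial phosphatase Ptprb at 10.94 ± 0.12 and caveolin Cav1 at 10.95 ± 0.13. Klf2, a transcription factor induced by laminar flow, varied most of them, with 8.0, 8.83, 7.57, 8.16, 6.76 and 9.0. Nos3, the endothelial nitric oxide synthase, gave 7.20, 7.33, 6.43, 7.34, 7.73 and 7.27, lowest in replicate 12. Replicate 14 was the lowest array for Klf2 and the highest for Nos3. Of 9 genes of lipid uptake 6 passed, with the carrier Fabp5 between 7.77 and 9.08 and the sterol exporter Abcg1 between 6.01 and 7.23.

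Xist, the transcript of the inactive X chromosome, was below the 40th percentile on all 6 arrays, between 4.20 and 4.54, while the Y-linked Eif2s3y was between 8.38 and 8.96, Kdm5d between 7.59 and 8.49 and Uty between 6.01 and 6.90. The labels used here do not give the sex of the mice.

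Rag1, a recombinase of lymphocyte precursors, gave 3.51, 6.19, 5.29, 4.67, 3.22 and 3.39, above the 40th percentile in 3 arrays, while the lymphocyte markers Cd79a and Nkg7 were above it in 1 and 0 arrays. Slc15a2, a peptide transporter, gave 3.0, 4.88, 3.78, 6.13, 6.64 and 2.98, and its second probe set was above the 40th percentile in 1 array. Car3, a carbonic anhydrase of fat and muscle, gave 4.21, 6.05, 4.17, 6.57, 6.80 and 5.57, and its second probe set was above the 40th percentile in 0 arrays.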
